A study of Mus musculus with 8 samples.

Results

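Semaphorins, plexins, neuropilins, ephrins, Eph receptors, Slits, Robos, netrins and the Unc5 and Dcc netrin receptors were followed in mouse dorsal root ganglia (DRG) before and after inflammation of the hind paw. The genes were taken from the deposited count table by their symbols. Of the 24421 genes in the table, 70 matched these families, and the 67 with a mean of at least 0.5 CPM (counts scaled to a common library size) over the 8 libraries were kept. All 67 also passed the filter on low counts and were among the 17328 genes tested. The 3 genes left out were Plxna4os1, an RNA annotated on the opposite strand within the span of Plxna4, with a mean of 0.103 CPM, the Slit receptor family member Robo3 with 0.261 CPM and the repellent semaphorin Sema3a with 0.315 CPM. The lowest members kept were Efna4 with 0.822 CPM, Epha1 with 1.01 CPM and Epha3 with 1.37 CPM.

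The samples came from 8-week-old C57BL/6J mice according to the series description, labelled WT (wild type). The methods of the study differ here, with male mice of the substrain C57/Bl6JRj and an age range that extends above this age. Inflammation was induced with 20 µl of 1% carrageenan, a seaweed polysaccharide, in the left hind paw, and ganglia L3 to L5 of that side were taken 1, 3 or 30 days later (1d, 3d and 30d). The 0d ganglia were from naive mice that received no injection, and ganglia after a vehicle injection were not analysed here. Each time point had 2 libraries, each from the pooled ganglia of 2 to 3 mice, and p-values therefore measure the spread between pools. The comparisons ask whether the genes that steer growing axons during development changed their RNA level in the ganglion in the first days after carrageenan (1d and 3d) and long after (30d).

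Axon guidance cues bind receptors on the growth cone and turn it towards or away from their source. Class 3 semaphorins are secreted and mostly act through neuropilins and A-type plexins. The semaphorins of classes 4 to 7 are mostly held in the membrane and bind plexins directly. Ephrins and Eph receptors both sit in the membrane and signal between touching cells, in both directions. Slits repel axons through Robo receptors, and netrins attract them through Dcc or repel them through Unc5 receptors. Sensory neurons use all of these systems as they grow into skin and spinal cord, and many of the genes stay expressed in adult ganglia.

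The libraries held 44123208 to 73580338 counts. According to the labels the cells are DRG neurons, but the libraries held RNA of the other cells of a ganglion too. The 10 neuronal marker genes summed to 14055 to 15076 CPM, the 7 genes of myelinating Schwann cells to 5495 to 10873 CPM, the 7 of satellite glia to 1126 to 1295 CPM and the 6 of fibroblasts to 1288 to 1917 CPM. Endothelial genes (7) summed to 118 to 136 CPM, mural cell genes (5) to 130 to 144 CPM, macrophage genes (8) to 95.4 to 112 CPM, red blood cell genes (5) to 141 to 515 CPM and skeletal muscle genes (6) to 18.2 to 103 CPM. No gene of these 9 lists was at 0 over all libraries. In such bulk samples, fewer cells of a type and less RNA per cell cannot be told apart.

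Levels of different genes were compared as RPKM, the CPM divided by the exon length in kilobases. The 67 genes spanned from 0.213 RPKM for the netrin receptor Dcc to 55.8 RPKM for the semaphorin receptor Plxnc1. Their median was 4.12 RPKM, against 6.10 RPKM over all genes tested. The 10 most abundant members made up 51.3% of the summed RPKM. This sum was 602.3 ± 17.4 RPKM at 0d (SD, n = 2) and 586.4 ± 8.72 RPKM at 1d, followed by 612.4 ± 1.06 RPKM at 3d and 609.8 ± 20.8 RPKM at 30d. The 4 means thus differed by less than the 2 pools of 30d did.

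**Figure D1:**
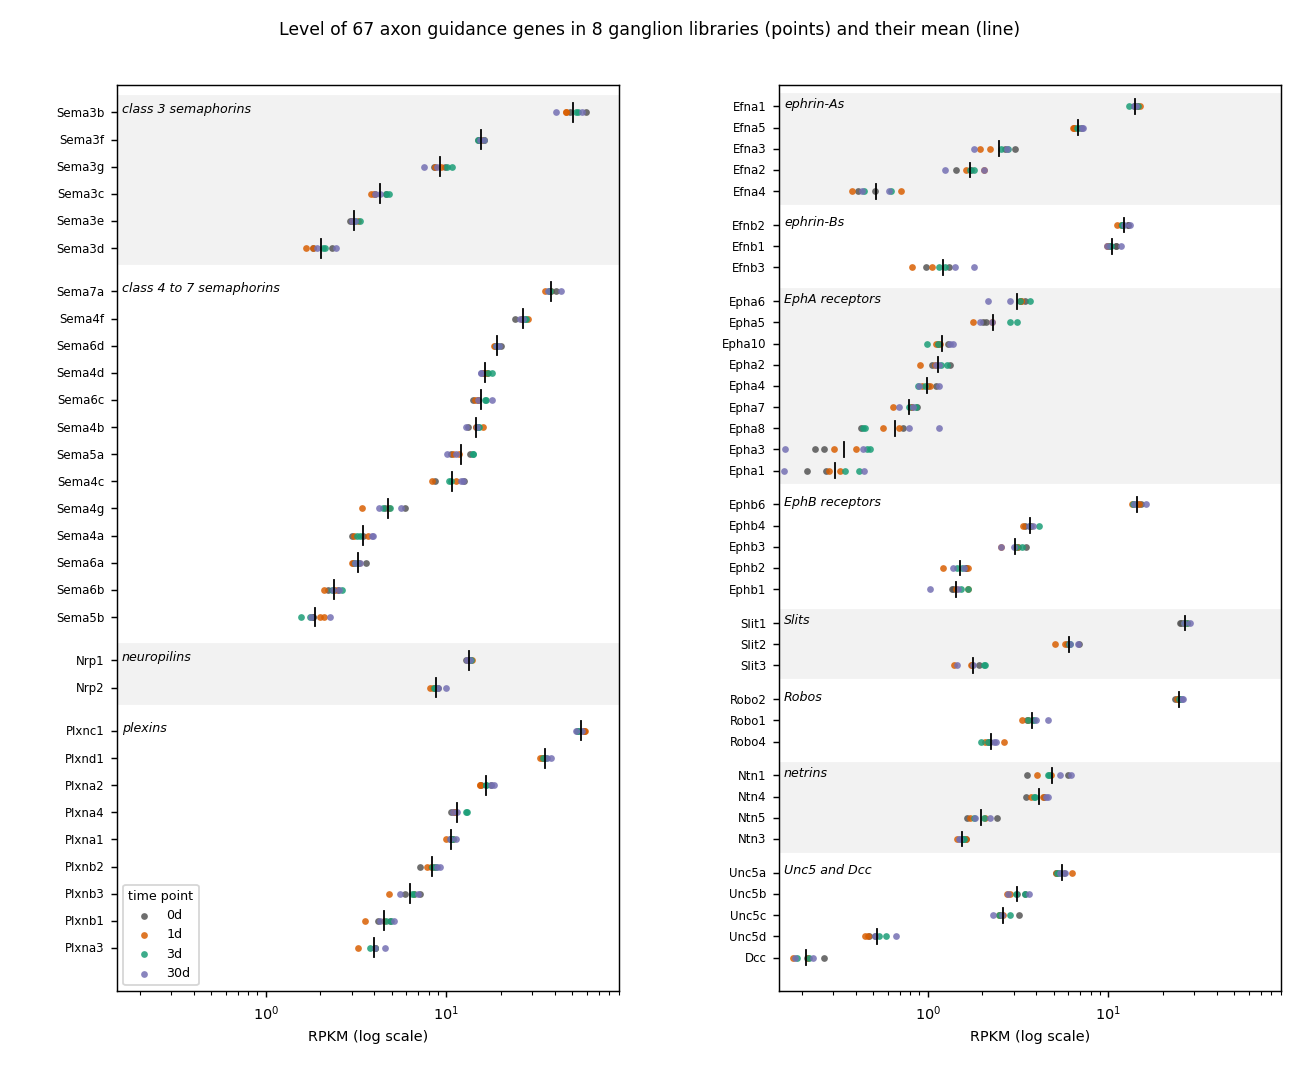
Level of each of the 67 genes in RPKM (log scale, x axis), grouped by family and ordered by mean. Points are the 8 libraries, coloured by time point, and the vertical line is their mean. The points of one gene lie close together compared with the distance between genes, which runs from 0.213 RPKM for Dcc to 55.8 RPKM for Plxnc1.

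Several ligands were found at a high level together with a known receptor. Plxnc1 was the most abundant member, at 55.8 ± 2.49 RPKM (SD over 8 libraries), and its ligand Sema7a, a semaphorin tethered to the membrane by a lipid anchor, stood at 38.2 ± 2.51 RPKM. Slit1 stood at 26.5 ± 1.06 RPKM and the receptor Robo2 at 24.7 ± 0.781 RPKM. These levels put Plxnc1 at the 92.1th, Sema7a at the 87.6th, Slit1 at the 82.4th and Robo2 at the 81.1th percentile of all genes tested. The spread over all 8 libraries was small against the level for each of these genes.

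Among the class 3 semaphorins, Sema3b was the most abundant, at 50.3 ± 6.18 RPKM, while Sema3a, the classic repellent of sensory axons, was below the threshold with 9 to 27 counts in a library. The neuropilins that bind these ligands were Nrp1 with a mean of 13.4 RPKM and Nrp2 with 8.79 RPKM. Of the other plexins, the endothelial and neuronal receptor Plxnd1 (35.1 RPKM) and Plxna2 (16.7 RPKM), a partner of neuropilins, came next after Plxnc1. Sema4f followed Sema7a among the remaining semaphorins with 26.5 RPKM.

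Efna1, an anchored ligand of EphA receptors, reached 14.2 RPKM, and Efnb2, a transmembrane ligand of EphB receptors and EphA4, reached 12.2 RPKM. The 9 EphA receptors lay between 0.308 and 3.14 RPKM, with Epha6 the highest, and summed to 10.9 RPKM. The 5 EphB receptors summed to 24.2 RPKM, of which 14.5 RPKM belonged to Ephb6, a receptor without kinase activity. On the netrin side, Ntn1 stood at 4.90 RPKM and the repulsive receptor Unc5a at 5.51 RPKM, whereas Dcc, the attractive receptor, was at the 8.45th percentile of all genes.

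Over time most members stayed close to their 0d level. No member passed the threshold (adjusted p under 0.05, edgeR quasi-likelihood test over all 17328 genes) at 1d against 0d, where 0.346% of all genes did. At 3d against 0d 1 member passed, Plxna4 (all genes 0.219%), and none did at 30d against 0d (0.0231%) or at 3d against 1d (0.289%). At 30d against 3d Plxna4 passed again (0.935%). The edgeR test of any change over the 4 time points called Plxna4 and Epha5 (1.02%). At an unadjusted p under 0.05 without correction, edgeR gave 3 members at 1d (4.47% of all genes), 6 at 3d (5.94%), 11 at 30d (12.3%), 7 at 3d against 1d (4.24%), 12 at 30d against 3d (13%) and 14 for any change (11%). The 3 comparisons with 0d share the 0d libraries, and those with 1d or 3d share these libraries too, so they are not independent of each other.

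Plxna4 encodes an A-type plexin, the signalling partner of neuropilins for class 3 semaphorins in sensory neurons. The gene lies on the minus strand of chromosome 6 of mm10, from 32144557 to 32588192, with 12588 bases of exon in the deposited annotation. Its level was 139.5 and 133.7 CPM at 0d, 140.0 and 138.9 CPM at 1d, 161.0 and 163.3 CPM at 3d, and 144.7 and 136.4 CPM at 30d. Both 3d libraries lay above the 6 others, and the other time points overlapped.

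Plxna4 rose by 0.25 ± 0.05 (log2, SE) from 0d to 3d, 1.19-fold, with an adjusted p of 0.0467 in edgeR. From 3d to 30d it fell by 0.21 on the log2 scale (SE 0.05), with an adjusted p of 0.0495 in edgeR. At 1d and 30d it differed from 0d by 0.03 ± 0.05 and 0.04 ± 0.05 (log2, SE). Against 1d, the 3d level was 0.22 ± 0.05 higher on the log2 scale, which did not pass (adjusted p 0.0749, edgeR). Both calls lie just inside the threshold, and limma-voom gave adjusted p-values of 0.0632 and 0.0507 for them. The call at 3d against 0d was also lost in edgeR without robust estimation (adjusted p 0.0976) and with the trend on GC content (0.175) or exon length (0.208) removed, with log2 fold changes of 0.24 to 0.25. That from 3d to 30d was lost with RLE size factors (0.0542), the CPM filter (0.0547), no robust estimation (0.0883) and the GC trend removed (0.114), all in edgeR. The call of any change (adjusted p 0.0352, edgeR) was lost with limma-voom (0.0602), no robust estimation (0.0831) and the exon length (0.0643) or GC trend (0.110) removed. It was also lost without 1d replicates 1 and 2 (0.0517 and 0.0595) and without 3d replicates 1 and 2 (0.444 and 0.544). Leaving out either 3d library raised the adjusted p of the first to 0.594 and 0.831 in edgeR, with log2 fold changes of 0.26 and 0.24. The call at 3d held without either 30d library and was lost without any one of the 6 others, while that from 3d to 30d held without either 0d library or 30d replicate 1 and was lost without any one of the other 5. Plxna4os1, on the opposite strand within this span, shares no exon bases with Plxna4 and had 0 to 13 counts in a library.

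Epha5 encodes a receptor tyrosine kinase for ephrin-As. It lies on the minus strand of chromosome 5 of mm10, from 84054765 to 84417382. The level was 15.7 and 16.4 CPM at 0d, 17.6 and 13.8 CPM at 1d, 24.4 and 22.1 CPM at 3d, and 15.2 and 17.6 CPM at 30d. The 3d libraries were again above the 6 others, and the levels at 0d, 1d and 30d overlapped.

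The edgeR test of any change gave Epha5 an adjusted p of 0.04997, which was 0.0577 without 0d replicate 1, 0.0531 without 1d replicate 2, and 0.735 and 0.324 without 3d replicates 1 and 2. The time points that differed were not resolved by the pairwise tests of the main edgeR fit, while some other settings called pairs with 3d. The 3d level was 0.53 ± 0.12 above 0d (log2, SE), 1.45-fold, with an adjusted p of 0.116 in edgeR, and 0.57 ± 0.12 above 1d, with an adjusted p of 0.0725. At 30d it was lower than at 3d, with a log2 fold change of -0.50 ± 0.12 and an adjusted p of 0.0633 (edgeR). DESeq2 gave adjusted p-values of 0.0123, 0.00591 and 0.00994 for these 3 comparisons, limma-voom 0.126, 0.13 and 0.0563, and edgeR without robust estimation 0.191, 0.144 and 0.111. In edgeR they were 0.00953, 0.0044 and 0.00708 without a filter, and 0.0107, 0.00362 and 0.0508 with the compared groups alone. The call of any change was lost with RLE size factors (adjusted p 0.0530), the CPM filter (0.0545), limma-voom (0.0811) and edgeR without robust estimation (0.111). At 30d Epha5 differed from 0d by 0.03 ± 0.12 (log2, SE).

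The 250 bases of mm10 before the start of Epha5 are shown because Epha5 is the called member for which the RefSeq promoter table (GRCm38.p6) held a window. They lie on the minus strand at chr5:84417383-84417632, overlap no annotated exon, and are printed 5′ to 3′ with the GC boxes, the letters GGGCGG or their reverse complement, in capitals.
Epha5: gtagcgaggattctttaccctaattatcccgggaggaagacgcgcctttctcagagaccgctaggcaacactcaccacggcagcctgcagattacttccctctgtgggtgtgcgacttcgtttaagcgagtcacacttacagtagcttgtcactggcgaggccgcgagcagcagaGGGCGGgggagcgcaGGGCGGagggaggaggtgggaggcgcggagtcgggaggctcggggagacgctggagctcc
The stretch was 62.4% G or C and held 2 GC boxes, motifs bound by Sp1-type factors. Windows were found for 57 of the 67 genes, 73 windows in all, of which 52 (71.2%) held a GC box on either strand, against 32.7% of 32851 windows of the same length. The member windows were also richer in G and C, with a median of 64.4% against 52.4%. The cyclic AMP response element TGACGTCA was in 1.37% of member windows and 1.55% of all, and the AP-1 letters TGANTCA were in 4.11% and 6.75%. The Epha5 window held neither of these motifs.

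**Figure D2:**
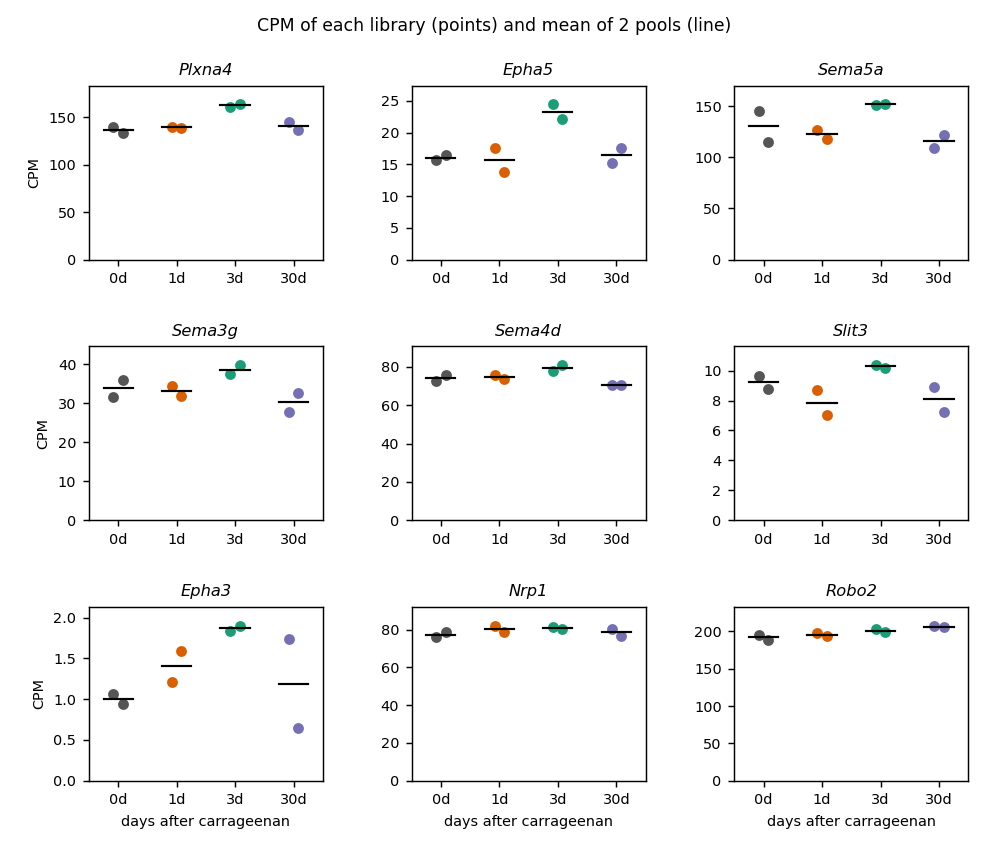
CPM (y axis, from 0) of 9 members in each library by time point (x axis, days after carrageenan), with points for the 2 pools and a line for their mean. In the first 7 panels both 3d points lie above the other 6. Nrp1 and Robo2 are shown as abundant members that stayed within a narrow range.

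In 7 members both 3d libraries were above the 6 others (10.4%), which was the case for 4.85% of all genes tested. Besides Plxna4 and Epha5 these were the class 3 semaphorin Sema3g, the plexin-B ligand Sema4d, the transmembrane semaphorin Sema5a, the Robo ligand Slit3 and the low-level ephrin-A receptor Epha3. In 1 member, both were below (3.78% of all genes). Sema4d, Sema5a and Slit3 were named after their values had been seen.

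Sema3g, which is known as an endothelial ligand of Nrp2, was measured at 31.6 and 36.1 CPM at 0d, 34.4 and 32.0 CPM at 1d, 37.4 and 39.8 CPM at 3d, and 27.9 and 32.8 CPM at 30d. The 3d pools were the highest, and the mean of the 30d pools was the lowest. Between them the log2 fold change was -0.35 ± 0.09, with an adjusted p of 0.0954 in edgeR. This difference of Sema3g passed in 3 of the 10 other settings, DESeq2, no filter and the replicate block. With each library left out in turn it lay between -0.47 and -0.24.

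Sema5a stood at 145.5 and 115.1 CPM at 0d, 126.9 and 118.1 CPM at 1d, 151.5 and 151.6 CPM at 3d, and 109.3 and 121.9 CPM at 30d. One 0d pool came close to the 3d pools, and the other did not. From 3d to 30d the log2 fold change was -0.39 ± 0.11, with an adjusted p of 0.210 in edgeR. This difference passed with DESeq2 (adjusted p 0.000831), with the compared groups alone (0.0075), with the exon length trend removed (0.00286) and without 0d replicates 1 and 2 (0.00198 and 0.00199), the latter 4 in edgeR. At 3d against 0d it passed without 0d replicate 1 (log2 fold change 0.40, adjusted p 0.0373, edgeR). Sema4d, the ligand of Plxnb1, had a narrower range, from 70.4 CPM in a 30d pool to 81.0 CPM in a 3d pool.

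**Figure D3:**
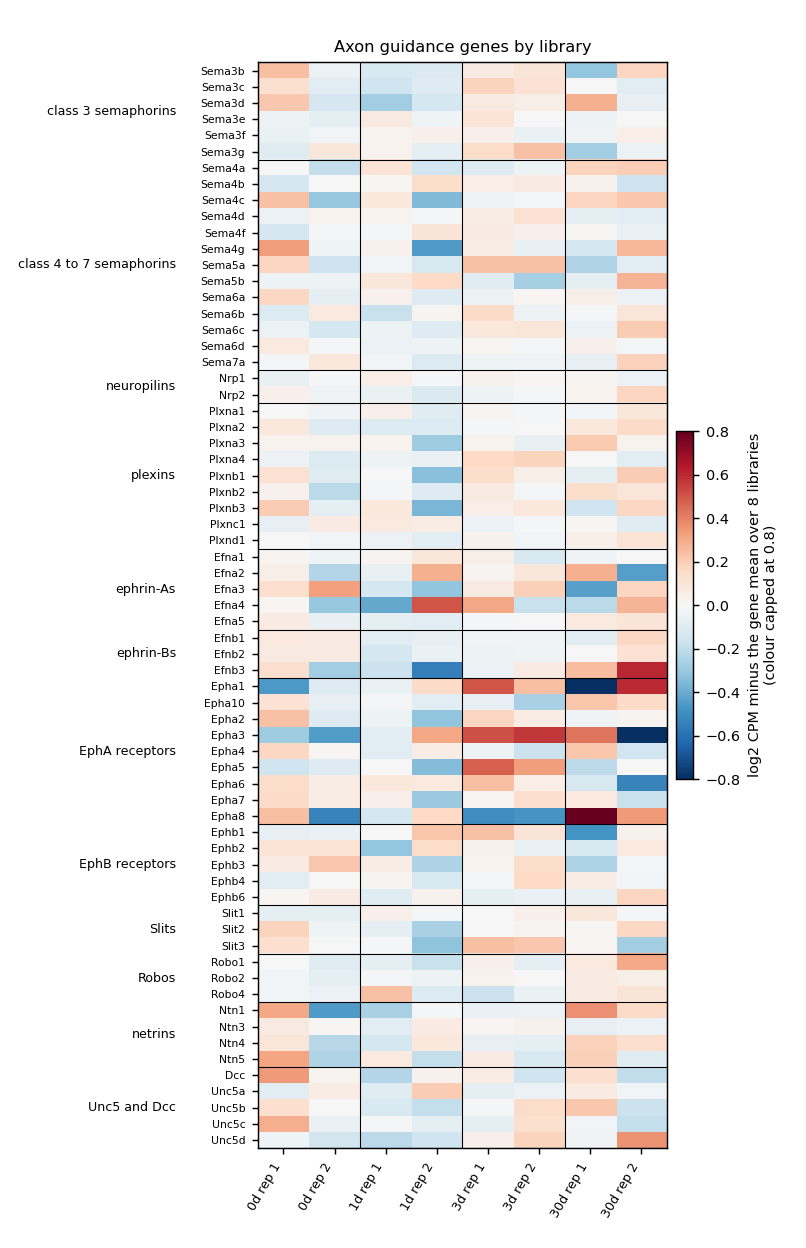
log2 CPM of each of the 67 genes (rows, by family) in each library (columns, by time point), minus the mean of the gene over the 8 libraries, with the colour capped at 0.8. Many rows turn blue in a 1d column and red in a 3d column, and the strongest colours belong to weakly expressed EphA receptors and to single pools.

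No member passed at 1d against 0d, but many had their lowest mean there. The lowest of the 4 time points was 1d for 34 of the 67 genes (50.7%), whereas 22.4% of all genes tested had their lowest level there. Against 0d, 43 members were lower and 24 higher at 1d (51.2% and 48.8% of all genes). The median log2 fold change of the members was -0.07, and over all genes the median was -0.0032. Without 0d replicate 1 the members' median was -0.019, without 0d replicate 2 it was -0.12 and without 1d replicate 2 -0.038. From 1d to 3d, 52 members were higher and 15 lower (50.8% and 49.2% of all genes), and the median was 0.07 against 0.0020 over all genes. In 28 members (41.8%) both 3d libraries lay above both 1d libraries, compared with 20% of all genes, and in 3 members, Plxnc1, Sema5b and Epha8, both lay below (17.6%). None of these members passed the edgeR test of 3d against 1d on its own.

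Members with their lowest mean at 1d were found in every family, but none of them passed in edgeR at 1d against 0d or at 3d against 1d, and in a small family the count can differ from the 22.4% of all genes by a single gene. They were 6 of 9 plexins, 6 of 13 class 4 to 7 semaphorins, 3 of 6 class 3 semaphorins, all 3 ephrin-Bs, 2 of 3 Slits, 3 of 5 Unc5 and Dcc receptors, 2 of 4 netrins and 1 of 2 neuropilins. The others were 2 of 5 ephrin-As, 2 of 5 EphB receptors, 3 of 9 EphA receptors and 1 of 3 Robos. The median size of the log2 fold change at 1d was 0.10 over the members, below their median SE of 0.12. With either library of 0d, 1d, 3d or 30d left out, 27 to 36 members were lowest at 1d, while 17.9% to 30.8% of all genes were. The lowest of the 8 libraries was 1d replicate 2 for 21 members (31.3%, all genes 15.2%) and 1d replicate 1 for 12 (17.9%, all genes 7.33%), and without 1d replicate 2 the count was 27.

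Some marker gene sums also had a lower mean at 1d than at 0d and 3d. The Schwann cell genes summed to 7963 and 10873 CPM at 0d, 7741 and 7801 CPM at 1d, and 9039 and 9114 CPM at 3d. The fibroblast genes summed to 1295 and 1917 CPM at 0d, 1288 and 1334 CPM at 1d, and 1406 and 1410 CPM at 3d. The satellite glia genes summed to 1289 and 1295 CPM at 0d, 1219 and 1205 CPM at 1d, and 1274 and 1270 CPM at 3d, so that both 1d pools lay below all 0d and 3d pools. The skeletal muscle genes summed to 103 and 56.1 CPM at 0d, 21.5 and 44.6 CPM at 1d, and 45.2 and 46.0 CPM at 3d. For endothelial genes the sums were 133 and 134 CPM at 0d, 131 and 122 CPM at 1d, and 132 and 128 CPM at 3d, and for mural cell genes 143 and 138 CPM, 139 and 138 CPM, and 143 and 144 CPM. The macrophage genes differed from these, with 112 and 95.5 CPM at 0d, 112 and 111 CPM at 1d, and 95.4 and 100.3 CPM at 3d. So did the red blood cell genes, with 141 and 282 CPM at 0d, 259 and 270 CPM at 1d, and 181 and 189 CPM at 3d. The neuronal sum showed no such order, with 14371 and 15076 CPM at 1d between which both 3d pools lay. Of all 9 lists, edgeR called the fibroblast gene Lum lower at 1d than at 0d, the macrophage gene Cx3cr1 lower at 3d than at 0d and 1d, and the muscle gene Myh1 lower at 1d and 3d than at 0d and higher at 30d than at 3d. Their part in the low 1d levels of the members was not tested. The members had longer exons than other genes (median 4899 against 2762.5 bases) and more G and C (56.1% against 49.9%). With the trend on exon length removed from each library, 29 members were lowest at 1d (19.6% of all genes), and with the trend on GC content removed 34 were (20.3%).

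**Figure D4:**
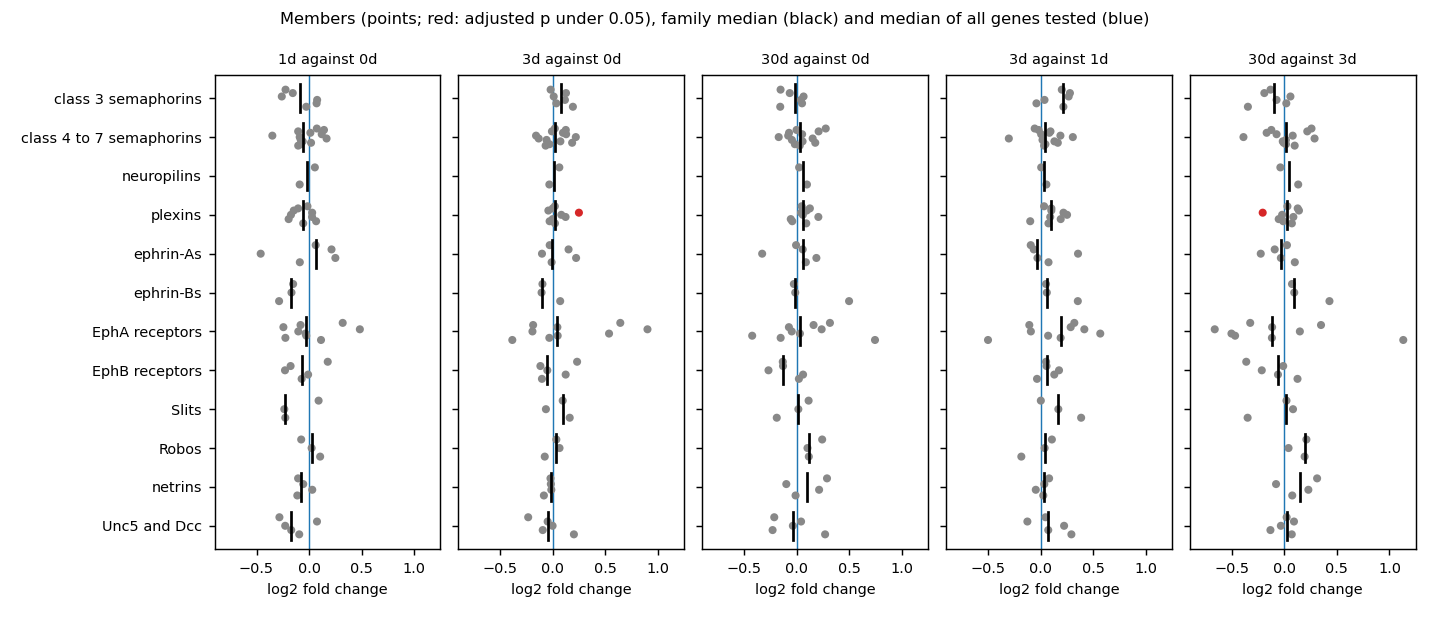
log2 fold changes of the 67 genes by family (y axis) for the 5 pairwise comparisons (panels). Grey points are members, red points those with an adjusted p under 0.05, black lines family medians and blue lines the median of all genes tested. Plxna4 is the red point at 3d against 0d and at 30d against 3d, and in the panel of 3d against 1d the medians of 11 of the 12 families lie above the blue line.

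By family, the median log2 fold change of the secreted class 3 semaphorins against 0d was -0.09 at 1d and 0.07 at 3d. From 1d to 3d it was 0.21, and 0.18 to 0.23 with each library left out. Sema3b was at 252.1 and 206.5 CPM at 0d, 196.0 and 196.7 CPM at 1d, 222.7 and 229.1 CPM at 3d, and 172.1 and 239.8 CPM at 30d. Its 1d pools were nearly equal and below both 0d and both 3d pools, but the 30d pools lay on either side of them. The log2 fold change from 1d to 3d was 0.20 ± 0.19. At 30d the class 3 median was -0.01 against 0d. Leaving out each library moved the class 3 median to between -0.10 and -0.06 at 1d and between 0.03 (3d replicate 1 left out) and 0.13 (0d replicate 1 left out) at 3d. At 30d it ranged from -0.08, when 0d replicate 2 was left out, to 0.04, when 0d replicate 1 was.

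The class 4 to 7 semaphorins had medians of -0.06, 0.02 and 0.03 (log2) at 1d, 3d and 30d. With each library left out in turn these lay between -0.06 (without 1d replicate 1) and 0.07 (without 0d replicate 1), between -0.02 (without 0d replicate 2) and 0.06 (without 0d replicate 1), and between -0.00023 (without 30d replicate 2) and 0.11 (without 30d replicate 1). Sema4f, a transmembrane semaphorin known from Schwann cells and oligodendrocyte precursors, was at 121.6 and 131.7 CPM at 0d, 132.0 and 143.5 CPM at 1d, 139.6 and 136.9 CPM at 3d, and 134.0 and 128.5 CPM at 30d. Its log2 fold change from 0d was 0.12 ± 0.05 at 1d (0.06 to 0.18 with each library left out) and 0.13 ± 0.05 at 3d (0.07 to 0.19). Sema6c, a transmembrane semaphorin, was 0.18 ± 0.07 above 0d at 3d and 0.18 ± 0.07 at 30d, where it became 0.043 without 30d replicate 2 and 0.30 without 30d replicate 1. Sema7a differed from 0d by -0.10 ± 0.07, -0.07 ± 0.07 and 0.03 ± 0.07 (log2, SE) at the 3 later time points. With each library left out, these differences of Sema7a lay between -0.15 and -0.06, -0.11 and -0.02, and -0.10 and 0.14. None of these differences passed in edgeR.

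Among the plexins and neuropilins, Plxna4 was the called member. For Nrp1, the 8 libraries lay between 76.0 and 82.1 CPM, and the range of its 4 time point means, 0.06 on the log2 scale, was smaller than the largest gap between the 2 pools of a time point. Nrp2 was lowest at 1d (68.9 and 65.9 CPM) and had its highest mean at 30d (72.8 and 80.5 CPM), with a log2 fold change of 0.10 ± 0.06 at 30d (0.022 without 30d replicate 2). Plxnc1 was at 375.7 and 410.3 CPM at 0d and at 414.6 and 409.1 CPM at 1d, followed by 380.4 and 388.9 CPM at 3d and 395.7 and 367.5 CPM at 30d. It was thus among the few members with both 1d pools above both 3d pools. Plxnb2, a receptor of class 4 semaphorins, was at 61.4 and 59.5 CPM at 30d, above the 56.9 and 47.9 CPM of 0d, with a log2 fold change of 0.21 ± 0.07 and an adjusted p of 0.287 in edgeR. This became 0.086 without 0d replicate 2 and 0.33 without 0d replicate 1.

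Among the ephrin-As, Efna1 differed from 0d by at most 0.06 ± 0.09, and Efna5, a ligand that sets topographic maps, was highest at 30d, with 37.6 and 38.1 CPM against 37.2 and 34.1 CPM at 0d. Among the ephrin-Bs, Efnb2 was at 55.6 and 55.5 CPM at 0d, 48.0 and 51.0 CPM at 1d, 51.4 and 51.7 CPM at 3d, and 52.8 and 57.2 CPM at 30d. The 1d pools were the lowest, with a log2 fold change of -0.17 ± 0.06 and an adjusted p of 0.830 in edgeR. Efnb3 reached 4.53 and 5.81 CPM at 30d, above all other pools, and its log2 fold change from 0d was 0.50 ± 0.22 (0.30 to 0.72 with each library left out).

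The EphA receptors showed the widest range of fold changes, from -0.39 to 0.90 at 3d and from -0.42 to 0.75 at 30d (log2). They also had the lowest family median level, 0.997 RPKM. Epha6, their most abundant member, was at 14.5 and 13.7 CPM at 0d, 13.9 and 13.8 CPM at 1d, 15.5 and 13.6 CPM at 3d, and 11.98 and 9.04 CPM at 30d. Both 30d pools were below the other 6, with a log2 fold change of -0.42 ± 0.13 from 0d and an adjusted p of 0.234 in edgeR. Without 30d replicate 1 this became -0.64 with an adjusted p of 0.0447, and without 30d replicate 2 it became -0.23 with an adjusted p of 0.471 (edgeR). Of the EphB receptors, Ephb6 stayed between 50.9 and 61.2 CPM, and Ephb3, which binds ephrin-Bs, had a log2 fold change of -0.27 ± 0.13 at 30d (-0.16 without 30d replicate 1).

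Slit1 differed from 0d by 0.09 ± 0.05, 0.09 ± 0.05 and 0.11 ± 0.05 (log2, SE) at 1d, 3d and 30d, and the last of these was 0.058 without 30d replicate 1, 0.16 without 30d replicate 2 and 0.073 with the exon length trend removed. Slit2, another repellent that also promotes sensory axon branching, was at 58.7 and 50.7 CPM at 0d, 49.5 and 43.3 CPM at 1d, 51.8 and 52.6 CPM at 3d, and 52.3 and 58.2 CPM at 30d. Both 1d pools were below all others, with a log2 fold change of -0.24 ± 0.08 and an adjusted p of 0.805 in edgeR. Without 0d replicate 1 it was -0.12 and without 0d replicate 2 -0.34. All 3 Robo receptors had their highest mean at 30d, as did 24 of the 67 members (35.8%) and 31.6% of all genes tested, and none of them passed in edgeR. They had a median of 0.12 against 0d (0.10 to 0.13 with each library left out). For Robo1 the 30d pools held 30.2 and 35.2 CPM, above the 28.5 and 26.8 CPM of 0d, and the log2 fold change was 0.24 ± 0.09 with an adjusted p of 0.289 in edgeR. Robo2 was at 195.9 and 188.9 CPM at 0d and at 207.8 and 205.3 CPM at 30d, a difference of 0.10 ± 0.04, and 0.043 with the exon length trend removed. Leaving out each library moved Robo1 between 0.13 (without 30d replicate 2) and 0.35 (without 30d replicate 1).

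Netrins and their receptors gave no clear time course. Ntn1 was at 34.3 and 20.2 CPM at 0d, a gap between pools that exceeded its differences between time points, and at 35.6 and 30.8 CPM at 30d. Ntn4, a netrin of basement membranes, was 0.21 ± 0.14 above 0d at 30d (log2, SE), between 0.058 and 0.38 without one or the other 0d library. Unc5a differed from 0d by 0.08 ± 0.10, -0.05 ± 0.10 and 0.04 ± 0.10 at 1d, 3d and 30d. With each library left out, these lay between -0.08 and 0.22, -0.12 and 0.03, and -0.03 and 0.12. Unc5d, a receptor shared with the Flrt proteins, was 0.27 ± 0.18 above 0d at 30d, and 0.061 without 30d replicate 2. Because reads were counted without strand and given to every gene they overlap, part of the counts of Unc5a could belong to Hk3, which shares 0.856% of its exon bases. For Epha1 and Zyx this share was 7.21%, for Ntn5 and Sec1 23.4%, and for Ntn3 and Tbc1d24 1.82%. The share of counts can be larger where the other gene is abundant. Zyx had a mean of 126 CPM against 1.01 CPM for Epha1, and Tbc1d24 25.3 CPM against 7.62 CPM for Ntn3. Hk3 and Sec1 had means of 2.08 and 2.96 CPM. How much of the Epha1 counts came from Zyx was not tested.

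At 30d the differences leaned upwards. The median over the 67 genes was 0.04 above 0d (log2), between 0.0093 (without 30d replicate 2) and 0.064 (without 0d replicate 1) with each library left out, and 0.021 without 0d replicate 2. Of these genes, 39 were higher and 28 lower (49.9% and 50.1% of all genes). Without correction, 10 members were higher at an unadjusted p under 0.05 in edgeR (6.23% of all genes) and 1 lower (6.02%). Besides Efnb3, Plxnb2, Robo1, Robo2, Sema6c and Slit1 the former were Epha8, Plxna2, Plxnd1 and Sema4a, and the latter was Epha6. No member passed after correction, and at this time point the 2 pools differed most. With the exon length trend removed the median was -0.00647. The Schwann cell genes summed to 5495 and 7755 CPM at 30d, below both 0d pools, and the satellite glia genes to 1126 and 1203 CPM, against 1289 and 1295 CPM at 0d. The neuronal genes summed to 14055 and 14448 CPM at 30d and to 14618 and 14759 CPM at 0d, and the red blood cell genes to 515 and 276 CPM at 30d and to 141 and 282 CPM at 0d. Their part in these differences was not tested.

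**Figure D5:**
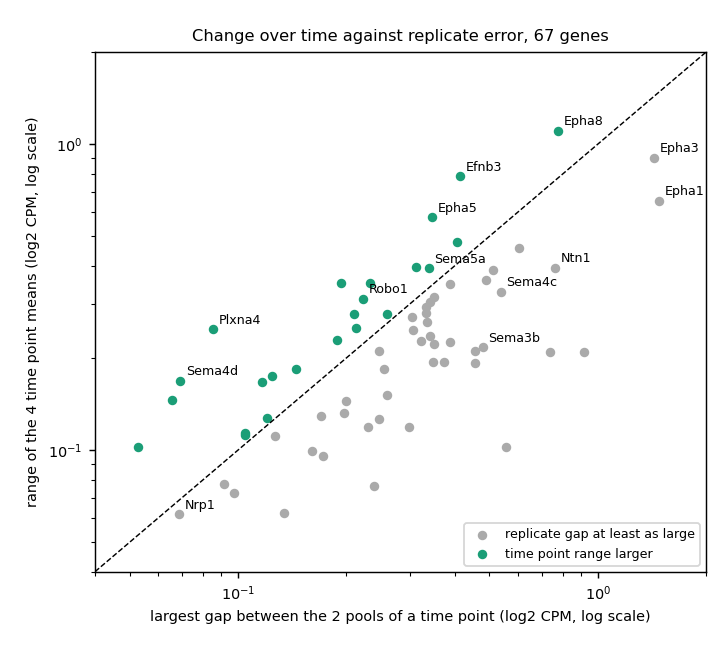
Range of the 4 time point means (y axis, log2 CPM) against the largest gap between the 2 pools of any time point (x axis, log2 CPM), both on log scales, for the 67 genes. The dashed line marks equality. The 23 genes above it (green) moved more over time than their pools differed, and Plxna4 lies among those farthest above it.

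The replicates set the limit of what could be seen. For 23 of the 67 genes (34.3%) the range of the 4 time point means was larger than the largest gap between pools, as it was for 34.9% of all genes tested. The median SD of log2 CPM between pools was 0.12 for the members and 0.11 for all genes. The gap was widest for weakly expressed genes and for single pools. Epha3 was at 1.74 and 0.643 CPM at 30d, Epha1 at 0.522 and 1.46 CPM at 30d, and Epha8 at 3.46 and 2.02 CPM at 0d. Among abundant members, Sema4c was at 53.8 and 37.0 CPM at 0d. Median gaps between pools were 0.06 at 3d and 0.18 at 30d (log2). Counts of the members differed between pools beyond counting error, as the chi-square divided by its degrees of freedom came to 20.4 for the 0d pools, 8.32 for 1d, 2.98 for 3d and 27.3 for 30d.

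Genes that act beside these ligands and receptors were read from 2 further lists. Of 44 other guidance ligands and co-receptors, such as Cxcl12, contactins and Rgm proteins, 43 were tested and 1 was called, at 30d against 3d and for any change, where 0.935% and 1.02% of all genes were. This was Sdc3, a heparan sulphate proteoglycan of axons, at 301.1 and 314.2 CPM at 0d, 317.4 and 338.3 CPM at 1d, 337.6 and 337.4 CPM at 3d, and 289.4 and 270.6 CPM at 30d. Both 30d pools were the lowest. Sdc3 fell by 0.27 on the log2 scale from 3d to 30d (SE 0.05, adjusted p 0.0122 in edgeR), and the edgeR test of any change gave an adjusted p of 0.0268. Both values for Sdc3 are from the main edgeR fit, and its results under the alternative settings are not given here. None of the 58 intracellular effectors tested, which include the collapsin response mediators, passed in any comparison (0.0231% to 1.02% of all genes). At an unadjusted p under 0.05 edgeR gave 3 of them at 1d, 5 at 3d and 7 at 30d against 0d (all genes 4.47%, 5.94% and 12.3%), and of the 43 other ligands and co-receptors it gave 6, 7 and 7.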

How the data were processed

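RNA of pooled mouse DRG was sequenced at 0d, 1d, 3d and 30d. The authors used cutadapt 2.10 for trimming and STAR 2.7.5a for alignment to mm10, and they counted read pairs on UCSC genes with featureCounts 2.0.1, without strand and for every overlapping gene. The deposited counts are not normalized. Groups and replicates came from the sample titles.

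All 8 libraries were fitted together in edgeR 4.0.16 (R 4.3.3), with filterByExpr, TMM scaling (factors 0.993 to 1.01) and robust quasi-likelihood F-tests. Benjamini-Hochberg adjustment was over 17328 genes (threshold 0.05). The SE is the size of the fitted change over the root of F. A permutation test of 2 against 2 libraries cannot reach 0.05. The fit was tested on simulated data. Totals of 44123208 to 73580338 counts leave little counting error for abundant genes. edgeR's common biological coefficient of variation came to 8.85%.

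The genes and lists were chosen with earlier results of these data known, and lists are described without a test. Named are members that passed a test, the most abundant member and the one with the smallest p for any change in each family, the 3 smallest p in each comparison with 0d, and the genes nearest to the CPM threshold. Members beyond this were named after their values had been seen.

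Alternatives were RLE size factors, no filter, a filter of 0.5 CPM in at least 2 libraries, DESeq2 1.42.0, limma-voom (limma 3.58.1), no robust estimation, the compared groups alone, a replicate block, trends on exon length or GC content removed (GC matched for 96.0% of genes), and each library left out in turn. Sequences are from RefSeq (GRCm38.p6).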

Additional observations from a re-analysis of the deposited data

Results flagged for a closer look

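The changes of Plxna4 from 0d differed between 3d and 30d. The log2 fold change was 0.25 ± 0.05 (SE) at 3d and 0.04 ± 0.05 at 30d, and the edgeR test of the difference itself, the comparison of 30d with 3d, gave -0.21 ± 0.05 with an adjusted p of 0.0495. Both 3d libraries were above both 30d libraries. Over the 10 other settings this comparison passed in 5, and with each library left out in turn in 3 of 8.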

How the results depend on the processing

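The number of members called hung on the setting. The share of all genes called under the same setting stands in brackets. At 3d against 0d it was 2, Plxna4 and Epha5, without a filter (0.433%), with DESeq2 (0.641%) and with the compared groups alone (0.699%), and 0 with limma-voom (0.144%), without robust estimation (0.115%) and with the exon length (0.237%) or GC trend (0.168%) removed. At 3d against 1d it was 2, Plxna4 and Epha5, without a filter (0.482%) and with DESeq2 (0.623%), and 4, with Sema3b and Sema5a added, with the groups alone (1.5%). At 30d against 3d it was 5 without a filter (1.74%) and with DESeq2 (2.18%), 3 with the exon length trend removed (0.756%), 2 with the groups alone (1.58%) and 0 with RLE size factors (0.906%), the CPM filter (1.01%), limma-voom (0.993%), no robust estimation (0.531%) and the GC trend removed (0.589%). Sema5a was among those of DESeq2, the exon length setting and the groups alone. For any change it was 4 without a filter (2.25%), 3 with DESeq2 (2.95%), 2 with the exon length trend removed (Epha5 and Sema5a, 1.19%), 1 with RLE size factors (0.998%), the CPM filter (1.11%) and the GC trend removed (1.08%), and 0 with limma-voom (0.681%) and without robust estimation (0.687%). Leaving out each library in turn gave 0 to 2 members at 3d against 0d (0.00561% to 0.68% of all genes), 0 to 1 at 30d against 0d (0.00561% to 1.15%), 0 to 2 at 3d against 1d (0.0281% to 0.663%), 0 to 3 at 30d against 3d (0.0674% to 2.95%) and 0 to 4 for any change (0.286% to 2.25%), with 0 in the latter without 1d replicate 2 (0.847%) or either 3d library (0.286% and 0.314%). The 1 member at 30d was Ntn1 without 0d replicate 1 (0.505%) and Epha6 without 30d replicate 1 (0.399%). Without either 3d library neither Plxna4 nor Epha5 was called in any comparison.

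The correlations of the deviations of libraries with equal replicate numbers lay between -0.0144 and 0.0438, which showed no pairing but cannot exclude it. With the replicate block 2 members, Plxna4 and Sema3g, were called at 30d against 3d (1.3% of all genes), and the counts of members in the other comparisons were the same as without it (0, 1, 0, 0 and, for any change, 2). The share of all genes called was higher with the block in each comparison. It was 0.398% against 0.0231% at 30d against 0d, and 1.62% against 1.02% for any change.

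The median over all members at 30d against 0d was -0.00647 with the exon length trend removed. With each library left out in turn, the median lay between -0.12 and -0.019 at 1d and between -0.0251 and 0.071 at 3d. Without 0d replicate 1 it was -0.019 at 1d and 0.071 at 3d. Family medians turned sign too, among them that of the class 4 to 7 semaphorins at 1d against 0d, -0.060, which was 0.067 without 0d replicate 1. At 30d against 0d Epha5 was -0.028 and Plxna4 -0.050 with the exon length trend removed, and leaving out each library gave -0.084 to 0.13 and -0.0038 to 0.083. At 1d against 0d these ranges were -0.22 to 0.13 for Epha5 and -0.00081 to 0.063 for Plxna4. The number of genes kept was 67 with CPM on TMM-scaled library sizes too. The count of members lowest at 1d, an alternative chosen after seeing the data, was 27 to 36 under the settings that fit all time points together. The cause of these differences between settings was not tested.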
